A study of Mus musculus with 40 samples.

Results

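Hearts of CM-Il11-Tg mice sampled 3 weeks after tamoxifen were compared with hearts sampled 1 week after tamoxifen, separately in male and in female mice, and the 2 results were then set side by side. The comparison used 16 of the 40 RNASeq libraries of the series, 4 for each sex and time, with 1 library per heart. The labels name the tissue as heart, and the study describes it as left ventricle. CM-Il11-Tg mice carry 1 copy each of a tamoxifen-activated Cre driven by the α-MHC promoter (MerCreMer) and of *Rosa26-Il11*, so that tamoxifen switches on *Il11* in cardiomyocytes, including those of the atria. The mothers of the cross were on a C57BL/6N background and the fathers on C57BL6/J. The mice were 8 weeks old at the first of 5 daily injections of tamoxifen (20 mg/kg). The control mice, whose levels are given below as background, carried MerCreMer without *Rosa26-Il11* and also received tamoxifen (3 male and 4 female libraries). Their labels name a single baseline and no week, so age and time since tamoxifen cannot be told apart from the duration of *Il11* expression. CM-Il11-Tg mice without tamoxifen (uninduced, 4 of each sex) and hearts taken at 6 weeks (3 male and 4 female) entered the same fits, where they helped to estimate the spread between libraries.

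IL11 is a cytokine of the IL6 family that signals through its receptor IL11RA and gp130 to STAT3 and ERK, and in the heart its best known target cell is the fibroblast. Cytokine release from injured or stressed myocardium is commonly followed by successive waves of blood cells: neutrophils and monocytes first, then antigen-presenting cells and lymphocytes. Antigen-presenting cells load peptides on MHC class II molecules, whose genes share a promoter architecture and depend on the coactivator CIITA. Because tissue and not sorted cells was sequenced, more cells of a type and more RNA per cell cannot be told apart in any result below.

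The 16 libraries held between 20345999 and 30929192 reads on listed genes. Values are CPM as deposited, which are read counts scaled by 1 factor per library. Over the listed genes they summed to between 817395 and 985319 in the 16 libraries, lowest in replicate 4 of the male 1-week group. In control hearts they summed to up to 1196280, so the factor was not the read total alone. Every difference is a log2 change at 3 weeks relative to 1 week on log2(CPM + 0.5), a scale that understates the change of genes with low values. The cardiomyocyte gene *Myh6* lay between 10800 and 28000 CPM and *Actc1* between 5370 and 8360 in all 16. A pair of 1-week libraries stood apart. In replicate 4 of the male 1-week group, mitochondrially encoded genes took 7.7% of the summed values, against 17.9 to 24.1% in the other 15 libraries. In replicate 2 of the female 1-week group the nuclear RNA *Malat1* was at 238 CPM, against 565 to 1090 elsewhere, and the atrial light chain *Myl4* was at 67 CPM, against 0.957 to 2.58 in the other libraries. Hemoglobin genes summed to 2640 to 5890 CPM at 1 week and 1190 to 3400 at 3 weeks in males, and to 3120 to 8300 and 1140 to 2550 in females.

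**Figure D1:**
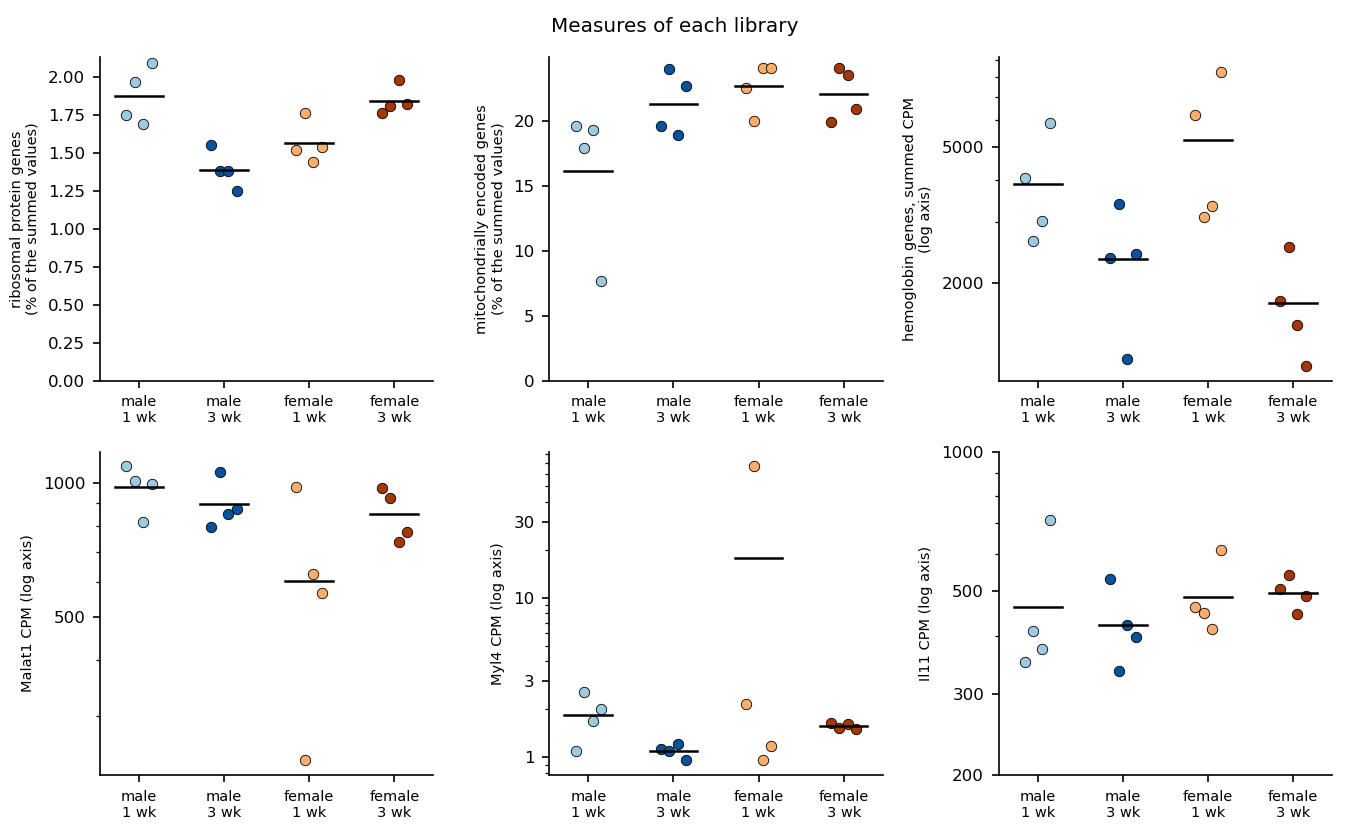
Measures of each of the 16 libraries (points) with the mean of each group (bar): the share of the summed values on ribosomal protein genes and on mitochondrially encoded genes (linear axes from 0), and summed hemoglobin, *Malat1*, *Myl4* and *Il11* CPM (log axes). One male 1-week library is low in mitochondrially encoded genes at 7.7%, and one female 1-week library is low in *Malat1* at 238 CPM and high in *Myl4* at 67 CPM.

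The levels of *Il11* itself overlapped between the 2 times. In males it was at 351, 410, 375 and 712 CPM at 1 week and at 529, 336, 422 and 398 at 3 weeks, with means of 462 ± 168 and 421 ± 80.7 (SD, n = 4 each). In females it was at 461, 447, 414 and 614 CPM at 1 week and at 504, 541, 445 and 488 at 3 weeks, with means of 484 ± 88.9 and 494 ± 39.8. One library stood above the rest at 1 week in each sex, and the 3-week values lay within the 1-week range apart from the lowest male one. The difference in mean log2(CPM + 0.5) was -0.09 in males (two-sided exact permutation p = 0.771) and 0.04 in females (p = 0.8, exact permutation test), where the smallest p that 4 against 4 libraries allow is 0.029. Control hearts held 0 to 0.166 CPM. Of the 11 tested genes for IL11 receptor subunits and signal transducers, 0 passed in either sex, where the median log2 change was 0.14 (males) and -0.07 (females). At an unadjusted p under 0.05 there were 0 in males, against 7.12% of all genes higher and 8.89% lower. In females 1 was higher and 0 lower at that threshold, against 5.42% and 4.6% of all genes.

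Few genes passed between the 2 times. In male hearts 2 of 16931 genes (0.0118%) had an adjusted p under 0.05 and a log2 change of at least 1 in size, both higher at 3 weeks, and 3 genes (0.0177%) passed when no minimum size was asked. In female hearts 28 of 16956 genes (0.165%) passed with the minimum size, 23 higher and 5 lower, and 37 (0.218%) without it, 28 higher and 9 lower. At an unadjusted p under 0.05, 1205 male genes were higher (7.12%) and 1505 lower (8.89%), and 919 female genes were higher (5.42%) and 780 lower (4.6%). When both tables were fitted together and the male and female changes were averaged, 36 of 16627 genes rose (0.217%) and 19 fell (0.114%) at an adjusted p under 0.05. Below, an adjusted p is from limma after Benjamini-Hochberg adjustment over all genes tested, and "rose" or "fell" is used for genes that passed in the sex named or in the mean of both sexes. Without the 2 libraries that stood apart, 44 genes passed in the mean of both sexes in place of 55, and 35 of the 44 were among the 55. The male count moved with single libraries, to 0 without replicate 1, 3 or 4 of the 3-week group and to 5 without replicate 1 of the 1-week group. The female count ran from 17 without replicate 3 of the 1-week group to 38 without replicate 2.

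Genes of MHC class II presentation rose between 1 and 3 weeks. The list held 12 genes for the chains of the class II molecule, the chaperones that load it, the invariant chain *Cd74*, the coactivator *Ciita* and the protease *Ctss*, and 11 of them had enough reads to be tested (*H2-Eb2* did not). All 11 had a positive log2 change in each sex. In the mean of both sexes 8 of the 11 rose (*H2-Ab1*, *H2-Aa*, *H2-Eb1*, *H2-DMa*, *H2-DMb1*, *H2-DMb2*, *Cd74* and *Ciita*), against 0.217% of all genes. Of these 8 calls 2 rested on single libraries, that of *H2-DMb2* being lost without any of 5 and that of *H2-DMa* without 1 of the 16 (adjusted p up to 0.0709 and 0.0523). In females alone 5 of the 11 rose, of which *H2-Eb1* held without each library in turn. In males 0 passed the adjusted threshold, while 8 were higher at an unadjusted p under 0.05, against 7.12% of all genes. As a median over the list, the log2 change was 0.89 for males and 0.98 for females, where that of all genes tested was 0.01 and 0.02. The change differed between the sexes at an adjusted p under 0.05 for 0 of the 11 and at an unadjusted p under 0.05 for 1.

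The genes for the class II chains, H2-M and H2-O lie together on mouse chromosome 17. Stretches of 150 bases upstream of the annotated start are shown for 4 genes that rose, because they hold a shared element of class II promoters, the Y box, an inverted CCAAT sequence that the factor NF-Y is known to bind. The sequences are from RefSeq (GRCm38.p6), 5′ to 3′ on the strand of the gene, with the 7 bases of the searched motif TGATTGG in capitals. *H2-Aa* lies at chr17:34287824-34287973 on the minus strand, and the other 3 are on the plus strand: *H2-DMb1* at chr17:34153041-34153190, *H2-DMb2* at chr17:34145099-34145248 and *H2-Eb1* at chr17:34305717-34305866.
H2-Aa: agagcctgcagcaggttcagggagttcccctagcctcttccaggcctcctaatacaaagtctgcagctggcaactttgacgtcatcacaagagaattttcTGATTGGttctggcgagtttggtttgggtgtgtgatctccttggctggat
H2-DMb1: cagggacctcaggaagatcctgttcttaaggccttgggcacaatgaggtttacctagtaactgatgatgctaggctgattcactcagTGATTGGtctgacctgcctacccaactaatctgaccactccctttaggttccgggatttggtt
H2-DMb2: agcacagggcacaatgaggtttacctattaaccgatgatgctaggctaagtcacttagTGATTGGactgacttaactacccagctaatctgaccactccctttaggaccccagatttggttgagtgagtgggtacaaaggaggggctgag
H2-Eb1: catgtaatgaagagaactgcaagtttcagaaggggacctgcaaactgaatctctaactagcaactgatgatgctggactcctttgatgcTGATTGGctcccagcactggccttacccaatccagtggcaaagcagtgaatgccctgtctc
Counted from the start site, the first base of the motif lay at -50, -63, -92 and -61 in these 4 genes. Over the 250 bases upstream and on both strands, the motif was found in 7 of the 9 genes of the list that had a promoter sequence (77.8%). Counted per promoter and not per gene, it was found in 2375 of 32851 in all (7.23%). Of the genes with the motif, *H2-Oa* and *H2-Ob* did not pass and *H2-Eb2* was not tested. The same search for TTTGAA in the cell cycle list found it in 7 of 27 genes (25.9%) and in 16.0% of promoters. TGATTGG contains the shorter ATTGG, and a match is a description of these letters only.

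*H2-Ab1* encodes the β chain of the I-A class II molecule. In females it was at 90.1, 115, 60.3 and 55.6 CPM at 1 week and at 207, 168, 235 and 182 at 3 weeks, so that every 3-week heart was above every 1-week heart. It rose in females by a log2 change of 1.35 (standard error 0.24, adjusted p = 0.0115). In males it was at 81.8, 96.1, 64.7 and 103 CPM at 1 week and at 321, 111, 149 and 163 at 3 weeks, without overlap, and the log2 change was 1.01 (standard error 0.25, adjusted p = 0.114). Replicate 1 of the male 3-week group was the highest of the 16 libraries, and without it the median change of the list in males was 0.6. Genes of thymus and lymph node, tissue that a dissection could bring in, summed to 119 CPM in that library and to 47.2 to 53.7 in the other 3 male 3-week hearts, against 57.6 to 89.3 at 1 week. In females the sum was 67.9 to 87.5 CPM at 1 week and 76 to 117 at 3 weeks. Of the 9 genes of this list 3 were tested, and the thymocyte genes *Rag1*, *Rag2* and *Dntt* were not listed in either table. The part of such tissue in the class II result was not tested. In the mean of both sexes *H2-Ab1* rose by 1.18 (standard error 0.18, adjusted p = 0.000332), and this call held without each of the 16 libraries in turn. In females alone it was lost without replicate 3 or 4 of the 1-week group or replicate 3 of the 3-week group, with an adjusted p of up to 0.0745.

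The other class II chains and their cofactors followed the same course. *H2-Aa*, the α chain that pairs with *H2-Ab1*, averaged 110 ± 28.8 CPM at 1 week and 270 ± 45.2 at 3 weeks among females (SD, n = 4 each), a rise of 1.31 on the log2 scale (adjusted p = 0.00704). Among males it averaged 114 ± 21.9 and 233 ± 110, and it rose by 1.12 in the mean of both sexes (adjusted p = 0.000226). *H2-Eb1*, the β chain of the I-E molecule, rose by 1.43 in females and by 1.16 in the mean of both sexes (adjusted p = 0.00513 and 0.000226), and in males its groups overlapped (0.89, adjusted p = 0.126). *Cd74*, the invariant chain that fills the peptide groove until loading, went from 253 ± 72.9 to 581 ± 87.1 CPM in females and from 268 ± 69 to 536 ± 247 in males, and rose by 1.08 in the mean of both sexes (adjusted p = 0.000384). *H2-DMb1*, a subunit of the peptide exchanger H2-M, was at 8.61, 9.71, 5.9 and 6.33 CPM at 1 week and at 16.4, 12, 19 and 15.6 at 3 weeks in females, and at 6.63, 8.3, 6.48 and 5.51 and then 20.7, 10.3, 10.3 and 12.6 in males. Its 3-week values were above all 1-week values in both sexes, and it rose by 0.96 in the mean of both sexes (standard error 0.14, adjusted p = 0.000158). *Ciita*, the coactivator of class II transcription, was at 3.31, 4.2, 2.79 and 3.63 CPM at 1 week and 10.4, 6, 6.24 and 8.91 at 3 weeks in males. In females it was at 4.09, 6.14, 3.6 and 2.82 and then at 9.56, 5.02, 9.91 and 8.79. The male groups did not overlap and the female groups did, through replicate 2 of both times, and *Ciita* rose by 0.99 in the mean of both sexes (standard error 0.15, adjusted p = 0.000226). The 3 tested genes that did not pass were *H2-Oa* and *H2-Ob*, which encode the inhibitor of H2-M, and *Ctss*, the protease that degrades the invariant chain, whose change was 0.08 in males and 0.26 in females. Of 11 genes of MHC class I presentation 0 passed, and their median change was 0.1 in males and 0.01 in females.

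**Figure D2:**
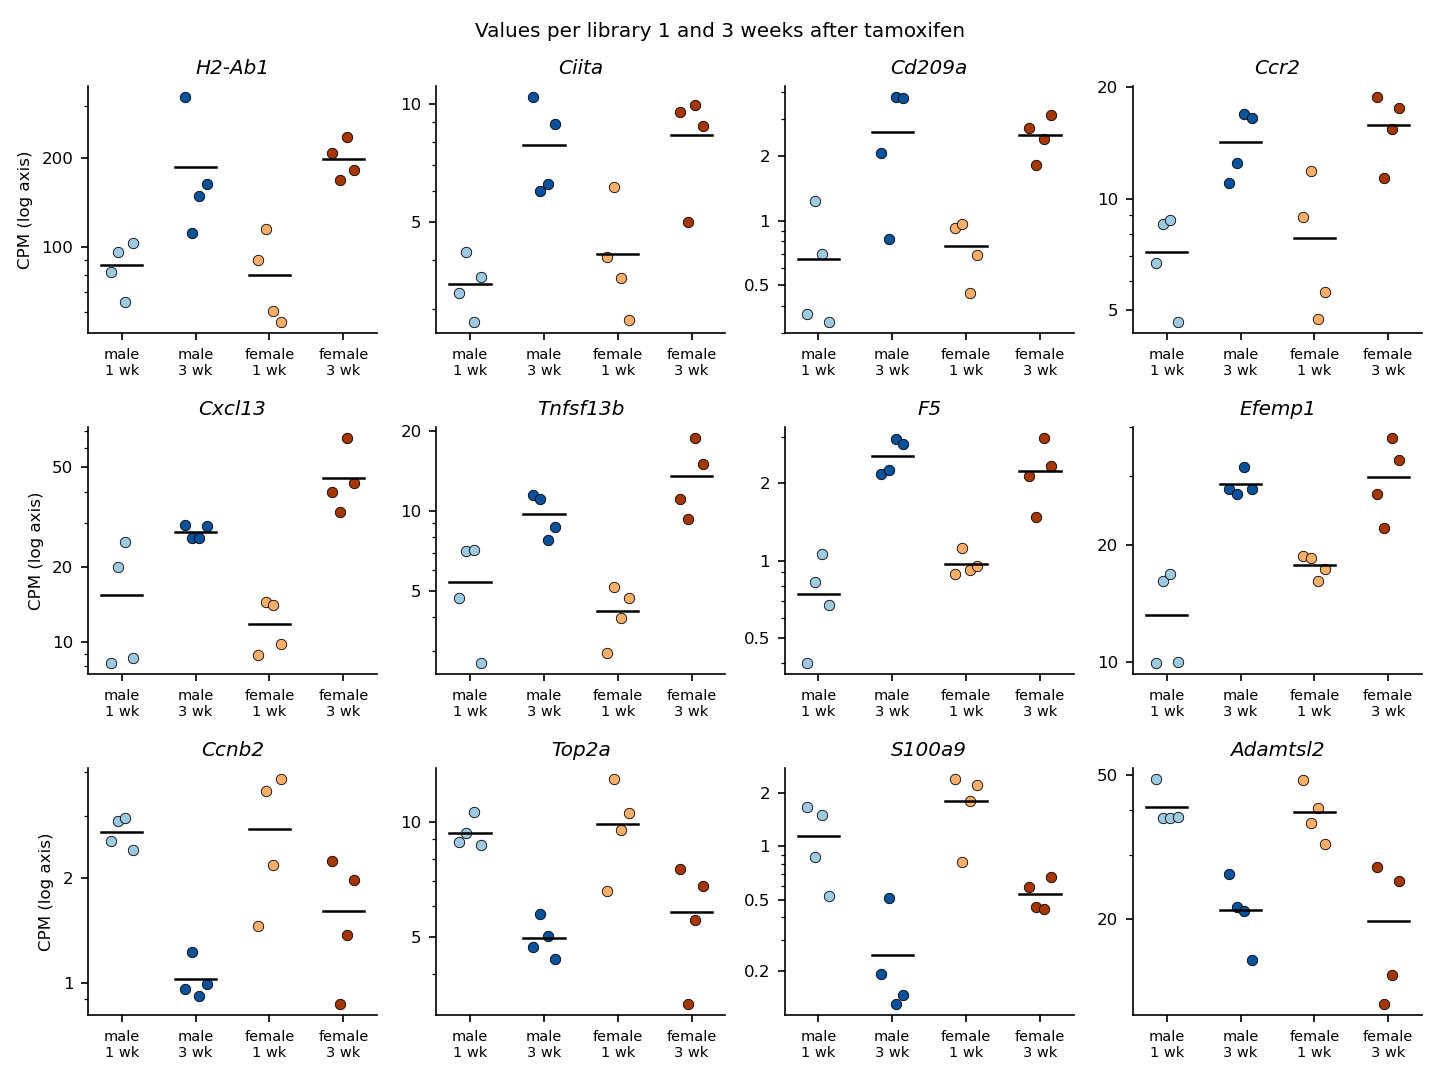
CPM (log axes) of 12 genes in each of the 16 libraries (points), with the mean of each group (bar), for male and female hearts 1 and 3 weeks after tamoxifen. In the *H2-Ab1* panel the male 3-week library at 321 CPM lies above all others, and in the *Ccnb2* and *Top2a* panels the male 3-week values lie below all male 1-week values while the female groups overlap.

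Markers of dendritic cells were higher at 3 weeks in part. Of 10 genes tested, 3 rose in the mean of both sexes (*Cd209a*, *Itgax* and *Batf3*), against 0.217% of all genes. The list had a median log2 change of 0.3 (males) and 0.48 (females). *Cd209a*, a lectin of monocyte-derived and type 2 dendritic cells, was at 0.925, 0.967, 0.46 and 0.694 CPM at 1 week and at 2.72, 1.82, 2.42 and 3.12 at 3 weeks in females, without overlap (log2 change 1.26, standard error 0.21, adjusted p = 0.00704). In males it was at 0.368, 1.24, 0.698 and 0.337 CPM at 1 week and at 2.08, 0.819, 3.78 and 3.75 at 3 weeks, where replicate 2 of the 3-week group fell among the 1-week values. It rose by 1.3 in the mean of both sexes (adjusted p = 0.000289). *Itgax*, which encodes the integrin CD11c, went from 2.07 ± 0.503 to 4.61 ± 0.858 CPM (SD, n = 4 each) in males and from 2.45 ± 0.731 to 4.41 ± 1.19 in females (mean of both sexes 0.87, adjusted p = 0.000411). *Batf3*, a transcription factor of type 1 dendritic cells, rose in females from 0.87 ± 0.139 to 2.5 ± 0.384 CPM (1.13, adjusted p = 0.0115) and was at 1.49 ± 0.607 and 1.61 ± 0.352 in males. Its female call was lost without any of 3 of the 8 libraries (adjusted p up to 0.079), and its call in the mean of both sexes without any of 11 of the 16 (up to 0.117) and with edgeR on recovered reads (0.0982). The difference between the sexes was not past the threshold (adjusted p = 0.0764). *Xcr1*, the defining receptor of type 1 dendritic cells, had log2 changes of 0.26 in males and 0.18 in females, and neither passed. *Irf4*, a transcription factor of type 2 dendritic cells, plasma cells and alternatively activated macrophages, rose by 0.7 in the mean of both sexes (adjusted p = 0.0257), a call lost without any of 8 of the 16 libraries.

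*Ccr2*, the receptor through which monocytes answer CCL2, was at 6.69, 8.53, 8.74 and 4.64 CPM at 1 week and at 11, 12.5, 16.9 and 16.5 at 3 weeks in males. In females it was at 8.93, 11.9, 4.73 and 5.59 and then at 18.8, 11.4, 15.4 and 17.6. The male groups did not overlap, whereas in females replicate 2 of the 3-week group lay just below replicate 2 of the 1-week group. It rose by 1 in the mean of both sexes (standard error 0.18, adjusted p = 0.00343). Of the 10 markers of recruited monocytes and macrophages tested in both sexes it alone passed. The median of that list was -0.1 over the 11 tested in males and 0.2 over the 10 tested in females. At an unadjusted p under 0.05, 3 were lower and 1 higher in males, against 8.89% and 7.12% of all genes. In females 0 were lower and 2 higher, against 4.6% and 5.42%. *Cd68*, a general macrophage marker, was at 18.7 ± 4.94 and 18.2 ± 2.42 CPM in males and at 23.7 ± 2.29 and 21.4 ± 2.17 in females. Of 10 markers of resident macrophages 0 passed, with medians of 0.2 and -0.21. Genes of myeloid cells outside the lists that rose in the mean of both sexes were *Pla2g2d*, a secreted phospholipase of resting dendritic cells and macrophages (0.99, adjusted p = 0.000897), *Slamf7*, a receptor of the SLAM family (0.99, adjusted p = 0.00407), *Il10ra*, the IL10 receptor subunit (0.48, adjusted p = 0.0257), and *Retnla*, a product of alternatively activated macrophages (1.19, adjusted p = 0.0358). The *Retnla* call was lost without any of 10 and the *Il10ra* call without any of 7 of the 16 libraries. Macrophage genes outside the lists also went the other way: *Ms4a4a* fell in females and *Atp6v0d2* in the mean of both sexes, as given below. *Clec7a*, the β-glucan receptor dectin-1, rose in females from 3.1 ± 0.143 to 6.86 ± 0.84 CPM (1.03, adjusted p = 0.00271) and was at 3.18 ± 0.871 and 4.58 ± 1.37 in males. The paralogs *Sirpb1a*, *Sirpb1b* and *Sirpb1c*, among which reads could have been divided, also passed in females and in the mean of both sexes with limma. With edgeR on recovered reads none of the 3 passed (adjusted p = 0.0937, 0.0995 and 0.084 in females and 0.135, 0.214 and 0.105 in the mean).

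A pair of signals for B cells rose. *Cxcl13*, the chemokine that draws B cells into follicles, was at 8.86, 14.5, 14.1 and 9.85 CPM at 1 week and at 39.8, 33.3, 65.4 and 43.2 at 3 weeks in females (log2 change 1.88, standard error 0.21, adjusted p = 0.00041). In males it was at 8.27, 20, 25.2 and 8.65 CPM at 1 week and at 29.4, 26.1, 26.2 and 29.2 at 3 weeks (0.97, standard error 0.27, adjusted p = 0.137). All 3-week values were above all 1-week values in each sex, and the mean change of both sexes was 1.43 (standard error 0.18, adjusted p = 3.53e-05). *Tnfsf13b*, which encodes the B cell survival factor BAFF, was at 2.95, 5.21, 3.97 and 4.73 CPM at 1 week and at 11.1, 9.39, 18.8 and 15 at 3 weeks in females (1.55, standard error 0.21, adjusted p = 0.000844). Among males it was at 4.72, 7.1, 7.18 and 2.7 and then at 11.5, 11.1, 7.79 and 8.76 (0.86, standard error 0.22, adjusted p = 0.116). Neither sex overlapped, and *Tnfsf13b* rose by 1.21 in the mean of both sexes (adjusted p = 3.53e-05). The male and female changes of *Cxcl13* and of *Tnfsf13b* were not shown to differ (adjusted p = 0.18 and 0.235).

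The lymphocyte markers themselves did not pass. Of 8 tested markers of B and plasma cells in males, 4 were higher and 4 lower, with a median change of -0.01. In females all 11 tested were higher, with a median of 0.87. There 4 had an unadjusted p under 0.05, against 5.42% of all genes, but 0 passed after adjustment. Replicate 3 of the female 3-week group stood out: the B cell antigen receptor subunit *Cd79a* was at 0.595, 0.836, 7.13 and 0.617 CPM at 3 weeks, and at 0.32 to 0.824 at 1 week. The joining chain *Jchain* of polymeric immunoglobulins was at 1.12, 0.532, 8.98 and 1.59 CPM in the same 4 hearts. In both genes 1 heart stood above the other 3. For T and NK cells, 0 of 9 male and 0 of 12 female markers passed, with medians of 0.1 and 0.48. At an unadjusted p under 0.05, 0 and 4 were higher, against 7.12% and 5.42% of all genes. *Cd4* was at 4.19 ± 2.34 and 5.37 ± 0.43 CPM in males and at 3.71 ± 1.17 and 5.46 ± 1.38 in females. Of the chemokine genes listed as later signals, *Cxcl13* passed alone in females and in the mean of both sexes, and the monocyte attractant *Ccl8* had log2 changes of 0.29 and 0.39.

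*F5* and *Efemp1* were the 2 genes that passed with the minimum size in males. *F5*, coagulation factor V, was at 0.402, 0.83, 1.06 and 0.674 CPM at 1 week and at 2.16, 2.25, 2.96 and 2.83 at 3 weeks in males (log2 change 1.31, standard error 0.19, adjusted p = 0.0184). The female hearts were at 0.889, 1.12, 0.92 and 0.954 CPM at 1 week and at 2.12, 1.48, 2.98 and 2.32 at 3 weeks (0.86, adjusted p = 0.173). The groups did not overlap in either sex, and *F5* rose by 1.09 in the mean of both sexes (adjusted p = 0.000146). Controls averaged 0.222 and 0.205 CPM, and 6-week hearts 5.35 and 4.37, in males and females. *Efemp1*, which encodes the matrix glycoprotein fibulin-3, was at 9.94, 16.1, 16.8 and 10 CPM at 1 week and at 27.8, 27, 31.6 and 27.8 at 3 weeks in males (1.12, standard error 0.17, adjusted p = 0.0184). Female values were 18.7, 18.5, 16.1 and 17.3 and then 26.9, 22.1, 37.5 and 32.9 (0.72, adjusted p = 0.24). Again neither sex overlapped, and *Efemp1* rose by 0.92 in the mean of both sexes (adjusted p = 0.000272). The male calls of both genes were lost without replicate 1, 3 or 4 of the 3-week group (adjusted p up to 0.0979), and that of *F5* also with edgeR (0.0533), whereas the calls in the mean of both sexes held without any single library.

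Other secreted and developmental genes rose. *Dlk1*, a noncanonical Notch ligand of progenitor cells, was at 0.178, 0.335, 0.376 and 0.39 CPM at 1 week and at 2.27, 1.1, 1.49 and 1.32 at 3 weeks in females, and at 0.134, 0.553, 0.399 and 0.187 and then 1.16, 1.81, 1.08 and 1.07 in males. All 3-week hearts lay above all 1-week hearts in both sexes. The mean change of both sexes was 1.21 (standard error 0.19, adjusted p = 0.000384). At 1 week *Dlk1* rested on at most 12 reads in a male and 9 in a female library. *Wfikkn2*, a secreted inhibitor of myostatin and GDF11, went from 16.9 ± 2.06 to 34.4 ± 7.17 CPM in females (0.99, adjusted p = 0.0121, lost without any of 4 of the 8 libraries) and from 21.9 ± 4.17 to 32.5 ± 4.63 in males, and rose by 0.78 in the mean of both sexes (adjusted p = 0.00119). *Crabp2*, a retinoic acid carrier, rose in females from 0.28 ± 0.235 to 1.7 ± 0.406 CPM (1.53, adjusted p = 0.00234) and was at 1.05 ± 0.406 and 1.68 ± 0.706 in males (mean of both sexes 1, adjusted p = 0.000382). *Ccn5*, a matricellular protein, was at 44.4, 94.3, 58.8 and 49.4 CPM at 1 week and at 126, 121, 189 and 165 at 3 weeks in females, without overlap (1.31, standard error 0.27, adjusted p = 0.0457), and at 101 ± 29.7 and 98 ± 13.5 in males. The *Ccn5* call was lost without any of 7 of the 8 female libraries and with edgeR on recovered reads (adjusted p = 0.0557), and the male and female changes were not shown to differ (adjusted p = 0.103).

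Of 18 complement genes, 2 rose and 1 fell in the mean of both sexes, against 0.217% and 0.114% of all genes. The median change was 0.24 in males and 0.09 in females. *C4b* went from 263 ± 65.2 to 450 ± 56 CPM in males and from 261 ± 63.1 to 335 ± 50.8 in females (mean of both sexes 0.59, adjusted p = 0.028), and reads shared with its near copy *C4a* make its level uncertain. *C6*, a component of the membrane attack complex, went from 2.7 ± 1.75 to 5.56 ± 1.69 and from 2.34 ± 0.541 to 3.97 ± 1.06 (0.85, adjusted p = 0.036). *Cfd*, complement factor D and also an adipocyte product, was at 4.23, 13.9, 1.42 and 1.82 CPM at 1 week and at 0.558, 1.25, 1.09 and 0.411 at 3 weeks in females, and did not exceed 1.29 CPM in males. It fell by 1.32 on the log2 scale in the mean of both sexes (adjusted p = 0.032). Single libraries ended these calls: *C4b* and *Cfd* were lost without any of 9 and *C6* without any of 10 of the 16, with adjusted p of up to 0.103. *C6* was also lost with edgeR on recovered reads (adjusted p = 0.14) and *C4b* with the replicate number as a block (0.0503).

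Matrix genes as a class did not pass. Among 17 fibrillar and basement membrane collagens, 13 in males and 14 in females were lower at 3 weeks, with a median of -0.26 and -0.18. In each sex 6 of them were lower at an unadjusted p under 0.05, against 8.89% of all genes in males and 4.6% in females. After adjustment 0 passed in either sex or in the mean. *Col1a1* was at 1280 ± 322 and 901 ± 335 CPM in males and at 1220 ± 454 and 1000 ± 269 in females. *Col3a1* was at 4990 ± 684 and 3500 ± 683 in males and at 4130 ± 1120 and 3770 ± 686 in females. For both genes the female groups overlapped. The 11 markers of activated fibroblasts had medians of 0 and 0.08 with 0 past the test, and *Postn*, which encodes periostin, was at 179 ± 96.1 and 121 ± 41 CPM in males and at 132 ± 63.7 and 139 ± 40.2 in females. *Col4a4*, a basement membrane collagen chain outside that list, fell by 0.60 on the log2 scale in the mean of both sexes (adjusted p = 0.0408), a call lost without any of 10 of the 16 libraries.

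*Adamtsl2*, a secreted glycoprotein that binds LTBP1 and limits TGFβ availability, fell. Among females it was at 48.4, 36.8, 40.4 and 32.3 CPM at 1 week and at 27.8, 11.7, 14 and 25.5 at 3 weeks (log2 change -1.06, standard error 0.21, adjusted p = 0.026). The male hearts were at 48.6, 38.1, 38.1 and 38.2 and then at 26.7, 21.6, 21.1 and 15.4 (-0.94, standard error 0.19, adjusted p = 0.114). The 3-week hearts lay below all 1-week hearts in both sexes, and the mean change of both sexes was -1 (standard error 0.15, adjusted p = 0.000223). *Srpx*, a secreted sushi-repeat protein, fell in females from 18.8 ± 2.46 to 10.2 ± 0.803 CPM (-0.85, adjusted p = 0.0224) and by 0.59 on the log2 scale in the mean of both sexes (adjusted p = 0.00488). *Gpc4*, a heparan sulfate proteoglycan, fell in females by 0.52 and in the mean of both sexes by 0.35 on the log2 scale (adjusted p = 0.0212 and 0.00912). The female calls depended on single libraries, that of *Adamtsl2* being lost without any of 4 and those of *Srpx* and *Gpc4* without any of 6 of the 8, and *Adamtsl2* had an adjusted p of 0.0609 in females with edgeR. The calls of these 3 genes in the mean of both sexes held without any single library.

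Genes of the cell cycle were mostly lower at 3 weeks. Of 33 tested, 31 had a negative log2 change in males and 29 in females, with a median of -0.5 and -0.29, and 17 and 15 had an unadjusted p under 0.05 in that direction, against 8.89% and 4.6% of all genes. After adjustment 0 passed in either sex alone, and 3 fell in the mean of both sexes (against 0.114% of all genes). These were *Ccnb2* and *Ccnb1*, the B-type cyclins that start mitosis, by 0.83 and 0.79 on the log2 scale (adjusted p = 0.0309 and 0.0386), and *Aurkb*, a kinase of chromosome segregation, by 0.72 (adjusted p = 0.0408). *Ccnb2* was at 2.54, 2.9, 2.96 and 2.4 CPM at 1 week and at 0.964, 1.23, 0.92 and 0.994 at 3 weeks in males. The 4 female hearts of each time were at 1.46, 3.53, 2.17 and 3.82 and then at 2.23, 0.874, 1.37 and 1.97. The male groups were well apart and the female groups overlapped. *Ube2c*, a ubiquitin-conjugating enzyme of mitotic exit that is not in the list, fell by 0.76 in the mean of both sexes on the log2 scale (adjusted p = 0.0222), a call lost without any of 5 of the 16 libraries. *Top2a* was at 9.35 ± 0.856 and 4.96 ± 0.577 CPM in males and at 9.86 ± 2.62 and 5.79 ± 1.83 in females (mean of both sexes -0.79, adjusted p = 0.142). The 3 calls depended on single libraries and settings: *Ccnb1*, *Ccnb2* and *Aurkb* were lost without any of 11, 10 and 14 of the 16 libraries, and with edgeR on recovered reads *Ccnb1* and *Aurkb* had an adjusted p of 0.0814 and 0.0868.

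The neutrophil markers *S100a9* and *S100a8*, which encode the subunits of calprotectin, fell. *S100a9* was at 1.67, 0.876, 1.5 and 0.524 CPM at 1 week and at 0.193, 0.512, 0.131 and 0.147 at 3 weeks in males, and at 2.38, 0.818, 1.8 and 2.21 and then 0.595, 0.456, 0.443 and 0.676 in females. No 3-week heart reached the lowest 1-week heart of its sex. The mean change of both sexes was -1.1 (standard error 0.2, adjusted p = 0.00309), and that of *S100a8* was -0.85 (adjusted p = 0.0368). The *S100a8* call was lost without any of 12 of the 16 libraries (adjusted p up to 0.105) and with edgeR on recovered reads (0.147), whereas the *S100a9* call held in each of these. Of the 6 neutrophil markers tested these were the 2 that passed, against 0.114% of all genes lower in the mean of both sexes. *Csf3r* and *Mmp9*, which other cells of the heart also express, had changes of 0.3 and -0.41. In each sex 4 of the 6 were lower and 2 higher, with medians of -0.32 in males and -0.26 in females. At an unadjusted p under 0.05, 3 were lower and 0 higher in each sex, where 8.89% and 4.6% of all genes were lower. Of 7 early chemokines and cytokines tested in each sex, 0 passed in either, with a median of -0.65 in males and 0.06 in females. In males all 7 were lower at 3 weeks, 4 of them at an unadjusted p under 0.05, against 8.89% of all genes. In females 4 were higher and 3 lower, and at an unadjusted p under 0.05 there were 1 and 0, against 5.42% and 4.6%. *Cxcl1*, a neutrophil attractant, was at 1.32 ± 0.988 and 0.502 ± 0.167 CPM in males and at 1.19 ± 0.263 and 0.982 ± 0.396 in females.

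Of the other genes with the largest changes of 1 direction in both sexes, most did not pass. The stress-induced skeletal actin gene *Acta1* was at 1430, 640, 541 and 170 CPM at 1 week and at 225, 297, 130 and 75.3 at 3 weeks in males, and at 307, 159, 142 and 89 and then 53.4, 138, 55.6 and 34.9 in females. The hearts of each group were spread widely and overlapped, and the mean change of both sexes was -1.55 (adjusted p = 0.124). Of 10 tested fetal and stress genes 0 passed in either sex, with medians of -0.47 in males and -0.06 in females. At an unadjusted p under 0.05, 4 were lower in males and 1 in females, against 8.89% and 4.6% of all genes. *Cilp*, a matrix protein of cartilage and fibrotic heart, averaged 22.9 ± 16.7 and 10.2 ± 5.68 CPM in males and 18.7 ± 6.13 and 7.43 ± 3.01 in females (-1.16, adjusted p = 0.074). The acute phase gene *Saa3* and the acid phosphatase *Acp5* had mean changes of -1.1 and -0.88 (adjusted p = 0.169 and 0.0502). *Atp6v0d2*, a proton pump subunit of osteoclasts and macrophages, fell by 0.72 on the log2 scale in the mean of both sexes (adjusted p = 0.032), a call lost without any of 9 of the 16 libraries and with edgeR on recovered reads (0.0772). *Ppl*, which encodes periplakin, had a mean change of 0.94 (adjusted p = 0.101). Among the female calls outside the lists, *C430002N11Rik* was at 0 to 0.149 CPM at 1 week and 0.57 to 2.22 at 3 weeks, and *Gm13339* at 8.02 to 46.1 and then 71.7 to 101, in both cases without overlap.

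Some genes passed in 1 sex, mostly the female. *Rsad2*, the antiviral enzyme viperin, was at 15.7, 14.5, 18.3 and 19.3 CPM at 1 week and at 8.33, 7.52, 7.37 and 7.61 at 3 weeks in females, far apart (log2 change -1.08, standard error 0.14, adjusted p = 0.000844), and at 15.9 ± 5.21 and 12.5 ± 3.52 in males. Control hearts averaged 24.2 CPM in females and 32.6 in males. *Rsad2* also fell in the mean of both sexes, a call lost without any of 9 of the 16 libraries. It was the 1 gene of 16 interferon-induced genes that fell, against 0.114% of all genes lower in the mean of both sexes. The median of that list was -0.19 in males and -0.17 in females, with 10 and 15 of the 16 lower. At an unadjusted p under 0.05, 1 was lower in males and 4 in females, against 8.89% and 4.6% of all genes. *Tent5c*, a noncanonical poly(A) polymerase, fell in females from 6.03 ± 1.14 to 2.77 ± 0.458 CPM (-0.99, adjusted p = 0.000844) and was at 4.33 ± 0.857 and 3.89 ± 0.249 in males. *Egln3*, an oxygen-sensing hydroxylase, fell in females from 44.7 ± 6.4 to 23.8 ± 3.17 CPM (-0.89, adjusted p = 0.0235) and was at 41.6 ± 12.5 and 44.8 ± 9.75 in males. *Ms4a4a*, a membrane protein of macrophages, fell in females from 6.3 ± 0.833 to 2.85 ± 0.606 CPM (-1.03, adjusted p = 0.0173). *Dio3*, which inactivates thyroid hormone, and the neighbouring noncoding *Dio3os* rose in females from 1.06 ± 0.357 to 2.95 ± 0.729 and from 1.12 ± 0.194 to 3.22 ± 0.377 CPM (1.15 and 1.2, adjusted p = 0.00458 and 0.000752). The libraries were made with a kit that marks the strand, but whether counting used it was not given in the sources used here, so reads of these neighbours may not be told apart. *Gstm5*, a glutathione transferase, was the third gene that passed in males, at 24.4, 24, 24.8 and 24.8 CPM at 1 week and 17.1, 16, 17.5 and 15.1 at 3 weeks (-0.57, adjusted p = 0.0191), and was at 21.6 ± 1.49 and 20.1 ± 2.18 in females. The calls of *Gstm5* and *Egln3* were each lost without any of 6 of the 8 libraries of the sex (adjusted p up to 0.145 and 0.137) and with the replicate number as a block (0.0901 and 0.0536), and that of *Ms4a4a* without any of 5 (0.0903). Between the sexes the change of *Rsad2*, *Tent5c*, *Egln3*, *Ms4a4a*, *Dio3* or *Gstm5* did not differ past the threshold (adjusted p = 0.181, 0.204, 0.0705, 0.237, 0.0637 and 0.131).

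Genes of red blood cells were lower at 3 weeks, with an unadjusted p under 0.05 in females only. Of the 7 erythroid genes, 7 were lower in females with an unadjusted p under 0.05, against 4.6% of all genes. The anion exchanger *Slc4a1* fell in females from 1.97 ± 0.604 to 0.405 ± 0.195 CPM (-1.44, adjusted p = 0.00368) and was at 1.02 ± 0.549 and 0.753 ± 0.467 in males. The median of the list was -1.52 in females and -0.68 over the 6 tested in males. All 6 were lower in males, 0 of them at an unadjusted p under 0.05, against 8.89% of all genes. For the difference between the sexes 0 of the 6 had such a p, against 17.7% of all genes. The part that blood left in the samples had in the other results was not tested. Among 15 genes of the circadian clock 0 passed after adjustment. At an unadjusted p under 0.05, 7 were higher and 2 lower in females, against 5.42% and 4.6% of all genes, and 0 in males. The clock output *Dbp* was at 32.7, 36, 42.4 and 27.2 CPM at 1 week and at 91.2, 140, 113 and 104 at 3 weeks in females. Male values were 53.5, 82.5, 78.6 and 23.6 and then 12.3, 55.2, 94.1 and 107. The female groups were apart and the male groups overlapped widely. *Arntl*, the clock activator that peaks opposite to *Dbp*, was at 6.28 ± 1.83 and 1.07 ± 0.575 CPM in females. The labels give no hour of sampling, and its part in the results was not tested.

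**Figure D3:**
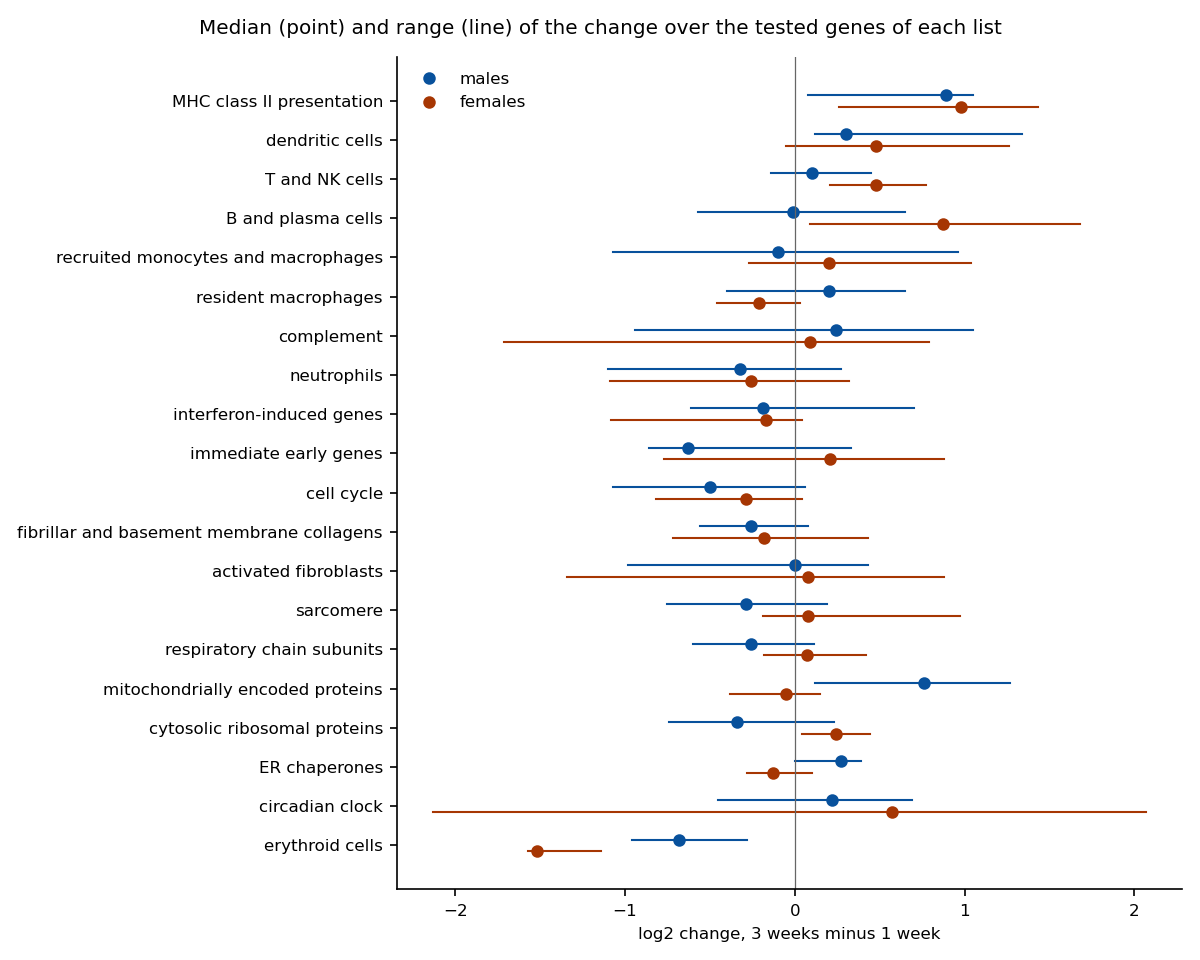
Median (point) and range (line) of the log2 change at 3 weeks relative to 1 week over the tested genes of 20 lists, for males (blue) and females (red-brown). The medians for MHC class II presentation are 0.89 and 0.98, those for the cell cycle are -0.5 and -0.29, and those for cytosolic ribosomal proteins lie on opposite sides of 0 at -0.34 and 0.24.

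Set side by side over the 16627 genes tested in both tables, the male and female changes had a Pearson's r across genes of -0.029 and a Spearman's rho of -0.152 (genes are not independent replicates). The sign of r depended on single libraries: it ran from -0.086 to 0.069 when each was left out, and was above 0 without replicate 2 (0.069) of the male 1-week group, replicate 4 (0.004) of the male 3-week group, replicate 3 (0.019) of the female 1-week group or replicate 2 (0.035) of the female 3-week group, and at 0 after rounding without replicate 3 of the latter. In the full set 41.4% of genes had the same direction in both sexes. At an unadjusted p under 0.05 in both sexes, 137 genes had the same direction (73 higher, 64 lower) and 226 the opposite direction. Of the 37 that passed in females, 36 were tested in males and 30 had the same direction there (83.3%), 15 of them with an unadjusted p under 0.05, while 0 had such a p in the opposite direction. All 3 genes that passed in males had the same direction in females, and 2 had an unadjusted p under 0.05.

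**Figure D4:**
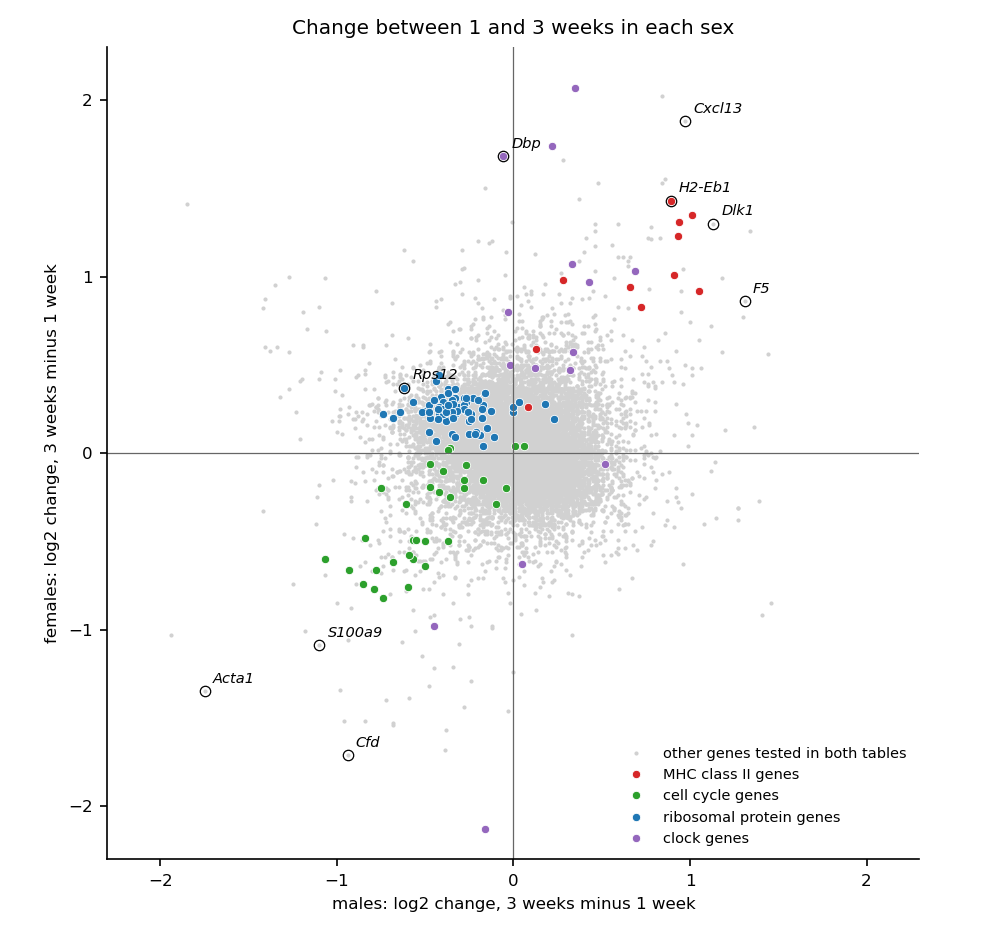
The log2 change at 3 weeks relative to 1 week in males (horizontal) and females (vertical) for the 16627 genes tested in both tables, with MHC class II, cell cycle, ribosomal protein and clock genes in color. MHC class II genes lie at the upper right, most cell cycle genes in the lower left, and most ribosomal protein genes in the upper left, lower in males and higher in females.

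No gene passed the test of a difference in change between the sexes: 0 of 16627 passed with limma and 0 with edgeR, although 2951 (17.7%) had an unadjusted p under 0.05. The 5 genes with the lowest p were *Rps12*, *Rpl39*, *Rplp2*, *Avpi1* and *Rab24* (adjusted p = 0.0557 for *Rps12* and 0.0588 for each of the others). *Rps12*, a protein of the small ribosomal subunit, was at 228, 274, 227 and 312 CPM at 1 week and at 164, 183, 175 and 148 at 3 weeks in males. Female hearts held 177, 198, 171 and 187 CPM and then 219, 241, 260 and 228. Its groups did not overlap in either sex and lay in opposite order, with log2 changes of -0.62 (males) and 0.37 (females). Of 76 cytosolic ribosomal protein genes, 71 were lower at 3 weeks in males and 76 higher in females, with medians of -0.34 and 0.24, and 61 had an unadjusted p under 0.05 for the difference. Their share of the summed values went from 1.69 to 2.09% at 1 week to 1.25 to 1.55% at 3 weeks in males, and from 1.44 to 1.76% to 1.76 to 1.98% in females. With the 1-week and 3-week libraries alone in the fit, 257 genes differed between the sexes, 39 of them ribosomal protein genes, and without replicate 1 of the male 1-week group 555 genes did, 31 of them ribosomal protein genes. Ribosomal protein genes have short messages, and across 16571 genes the change went with exon length in opposite ways in the 2 sexes (Spearman's rho 0.23 in males and -0.25 in females, as a description across genes). The median change ran in males from -0.09 in the shortest to 0.07 in the longest of 4 equal groups of genes and in females from 0.1 to -0.05. The part of transcript length, RNA quality or library preparation in this contrast was not tested.

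Nuclear genes of the respiratory chain and of the sarcomere also had medians on opposite sides of 0 in the 2 sexes, without passing. Among 23 nuclear genes for respiratory chain subunits 22 were lower in males and 17 were higher in females, with medians of -0.26 and 0.07. In males 8 were lower at an unadjusted p under 0.05, against 8.89% of all genes. Among 16 sarcomere genes the medians were -0.29 and 0.08. The 13 mitochondrially encoded proteins were all higher at 3 weeks in males with a median of 0.76, which was 0.22 without replicate 4 of the 1-week group, the library low in these transcripts, and had a median of -0.05 in females. For each of these 3 lists 0 genes passed in either sex or for the difference.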

How the data were processed

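PolyA RNA from mouse hearts was sequenced as 1 library per heart. The authors aligned reads with STAR to GRCm39, counted them per gene with featureCounts and deposited 1 table of CPM for each sex, of 17646 genes in males and 17223 in females. The deposited values behave as a signal in which each read is worth a fixed amount per library: divided by that amount, 100% lie within 0.001 of a whole read. The 2 tables were scaled separately, so each change was taken within 1 table. Of 40 libraries, 2 male ones with contradictory labels were placed in no group.

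Genes with at least 0.5 CPM in at least 3 libraries of a sex were tested with limma 3.58.1 in R 4.3.3, using log2(CPM + 0.5), a trended variance, 1 fit over every group of a sex and Benjamini-Hochberg adjustment. The sex difference was tested in 1 fit of both tables. The mean of both sexes was added after the data had been seen. *Il11* was compared by exact permutation. The scripts were tested on simulated data. edgeR 4.0.16 and DESeq2 1.42.0 were run on the recovered reads as alternatives, because the study used a count test and the deposited values are not counts. Nothing in the labels says that replicates share a litter or a day, and p-values measure the spread between these hearts only.

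Genes named are those that passed in each sex with a log2 change of at least 1 (at most 15 in a direction). Named too are the 12 in each direction with the largest smaller change among those with an unadjusted p under 0.05 in both sexes. The 5 with the lowest p for the sex difference, examples from the gene lists and some of the genes the study's text names were added. The study's stress markers *Nppa* and *Nppb* and its endothelial markers are among those not given. *Clec7a*, *Col4a4*, *Dio3*, *Egln3*, *Gpc4*, *Gstm5*, *Il10ra*, *Irf4*, *Retnla*, *Srpx*, *Tent5c*, *Ube2c*, *Wfikkn2* and the *Sirpb1* genes fall outside these rules and were chosen after their values were seen. The comparison and the lists were chosen with earlier results of these data known. Promoter sequences are RefSeq's on GRCm38.p6, which is not the build of the tables. One result among the female calls is not reported here.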

Additional observations from a re-analysis of the deposited data

Results flagged for a closer look

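In 192 groups of 4 values examined, 7 held 1 heart set apart from the other 3, and chance alone gives about 1 in 20. Replicate 4 of the male 1-week group held *Il11* at 712 CPM (others 351 to 410) and 7.7% of the summed values on mitochondrially encoded genes (others 17.9 to 19.6%). Replicate 1 of that group held *Adamtsl2* at 48.6 CPM (others 38.1 to 38.2). In the male 3-week group, replicate 3 held *Efemp1* at 31.6 CPM (others 27 to 27.8), and replicate 2 held *Dlk1* at 1.81 (others 1.07 to 1.16) and *S100a9* at 0.512 (others 0.131 to 0.193). Replicate 1 of the female 1-week group held *Ms4a4a* at 7.54 CPM (others 5.8 to 5.99).

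Uninduced CM-Il11-Tg hearts, which entered the fits but were compared with no group above, held *Il11* above the controls: a mean of 19.6 CPM in males, where controls held 0 to 0.147, and of 26.8 CPM in females, where controls held 0 to 0.166.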

How the results depend on the processing

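Counts of genes that passed moved with the settings, and the cause was not tested. The male and female counts here are of genes past both thresholds. Those for the sex difference and for the mean of both sexes use the adjusted p alone. The male count of 2 was 1 with a pseudocount of 0.1 or 2 or with edgeR, 0 with the 1-week and 3-week libraries alone, 78 with array weights (20 higher) and 47 with DESeq2 (25 higher), and 0 to 5 without single libraries. The female count of 28 was 10 with a pseudocount of 2, 68 with array weights (49 higher) and 53 with DESeq2 (38 higher), and 17 to 38 without single libraries. The sex difference, 0 genes, was 257 with the 1-week and 3-week libraries alone, 0 to 555 without single libraries and 2 without both libraries that stood apart. Besides replicate 1 of the male 1-week group (555), leaving out replicate 2 of the male 3-week group gave 133 and replicate 1 of the female 3-week group 73. The mean of both sexes, 55 genes, gave 30 (without replicate 3 of the female 3-week group) to 58 without single libraries. For *Il11* the sign, not past the test in any setting, turned without replicate 4 of the male 1-week (0.14) or replicate 2 of the male 3-week group (0.01) and without replicate 3 of the female 1-week (-0.03) or replicate 2 of the female 3-week group (0); the ranges were -0.21 to 0.14 and -0.03 to 0.16. The correlation of the male and female changes across genes, -0.029, was -0.08 with a pseudocount of 2, 0.005 with one of 0.1 and -0.086 to 0.069 without single libraries. Of the alternative fits of named genes in 1 sex, 997 left direction and side of the threshold as they were, 47 passed newly, 44 no longer passed and 0 reversed.

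The residuals of same-numbered 1-week and 3-week hearts correlated between -0.081 and 0.256 (number 2) in males and between -0.095 and -0.024 in females. With 4 pairs in each sex these values cannot show whether same-numbered hearts shared a litter or a day. With the replicate block the counts were 2 in males, 31 in females, 0 for the sex difference and 55 for the mean of both sexes (47 shared), where *Ccnb1*, *Ccnb2*, *Aurkb* and *Batf3* had adjusted p of 0.0669, 0.0551, 0.0686 and 0.0551 and *C4b* one of 0.0503. Of the named genes in 1 sex, *Gstm5* in males (0.0901) and *Egln3* in females (0.0536) no longer passed. The 4 hearts per group limit small changes, and genes near 1 CPM rest on few reads.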
